A study of Mus musculus with 7 samples.

Results

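Cholesterol synthesis and uptake was followed here through 7 genes, Hmgcs1, Idi1, Fdft1, Sqle, Lss, Cyp51 and Insig1, listed by name. All 7 were found among the 25033 gene symbols counted, and 6 of them passed the filter on low counts that left 11265 genes for testing. RNA was taken from lin- bone marrow cells, the blood-forming progenitors that remain after mature cells are depleted with antibodies, of 3 HRP-2 wild type mice (Hrp2+/+) and 4 HRP-2 knockout mice (Hrp2-/-). The knockouts carried the systemic tm1b allele of Hdgfl2, the gene for the chromatin reader HRP-2 (hepatoma-derived growth factor-related protein 2), on a C57BL/6N background. Per the methods, such cells came from the femur and tibia of animals 6 to 8 weeks old after lysis of red cells. The comparison asks how the loss of HRP-2 alters gene expression in these progenitors, here for the genes of cholesterol supply.

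Cells build cholesterol from acetyl-CoA through the mevalonate pathway, in which Hmgcs1 makes HMG-CoA and Idi1 isomerizes the activated isoprene unit. Fdft1 (squalene synthase) then commits the carbon to sterols, Sqle (squalene epoxidase) oxidizes squalene, Lss (lanosterol synthase) closes the rings and Cyp51 removes a methyl group from lanosterol. The pathway is read out through the transcription factor SREBP2, which Scap carries out of the endoplasmic reticulum when sterols are low and which Insig1 holds back when they are high, and its targets include both enzymes of synthesis and proteins of uptake. Dividing progenitors need sterols for new membrane, and hypercholesterolaemia is known to expand blood stem and progenitor cells.

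The promoters of 3 of these genes are shown because Hmgcs1 and Cyp51 turned out to be highest in the same knockout mouse and Insig1 did not. RefSeq promoter sequences (GRCm38.p6) matched 5 of the 7 genes, which left Sqle and Fdft1 without one. Each line gives the 250 bases before the annotated start, 5′ to 3′ on the gene's strand, in lower case with capitals for TCACNCCAC, a sterol regulatory element in letters, and for CCAAT, the NF-Y box, on either strand (ATTGG is CCAAT on the other strand).
Hmgcs1 (chr13:119690101-119690350, plus strand): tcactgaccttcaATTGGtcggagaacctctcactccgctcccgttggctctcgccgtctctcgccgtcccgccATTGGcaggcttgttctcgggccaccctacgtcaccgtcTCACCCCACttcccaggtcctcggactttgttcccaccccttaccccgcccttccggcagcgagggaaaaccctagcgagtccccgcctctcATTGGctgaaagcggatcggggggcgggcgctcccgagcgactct
Cyp51 (chr5:4104698-4104947, minus strand): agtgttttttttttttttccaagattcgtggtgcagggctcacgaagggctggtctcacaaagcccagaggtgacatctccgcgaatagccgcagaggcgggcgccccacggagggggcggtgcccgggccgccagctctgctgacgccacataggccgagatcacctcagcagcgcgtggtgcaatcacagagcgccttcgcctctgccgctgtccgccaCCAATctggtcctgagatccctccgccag
Insig1 (chr5:28071162-28071411, plus strand): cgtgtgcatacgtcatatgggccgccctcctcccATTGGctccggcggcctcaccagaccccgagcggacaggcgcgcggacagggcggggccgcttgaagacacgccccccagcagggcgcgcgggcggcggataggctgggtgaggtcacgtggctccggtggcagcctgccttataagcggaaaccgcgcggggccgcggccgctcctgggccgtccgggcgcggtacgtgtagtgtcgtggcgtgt

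Motifs were counted in windows that run from 250 bases before the start to 50 after it. Among the 5 members in the table, TCACNCCAC was found in Hmgcs1 alone, as TCACCCCAC beginning 137 bases before the start, against 1.44% of the genes in the table (1.24% of its 32851 windows). Among the 19 other synthesis and uptake genes in the table it was found in 1, Stard3. CCAAT stood in all 5 members and in 17 of the 19 other genes, against 41.1% of all genes (37.4% of windows), with 4 copies in Hmgcs1 and 1 each in Cyp51 and Insig1. GGGCGG, the GC box of Sp1, stood in all 5 members and in 16 of the 19 other genes, against 38.2% of all genes (35.7% of windows). These are matches of letters in a window and not sites of binding.

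The 7 libraries held between 3525665 and 5605158 reads on genes, and another 27.0% to 31.6% of reads fell on no gene. A single transcript, the ribosomal precursor Rn45s, took between 4.94% and 20.6% of the reads on genes, with its lowest share in knockout replicate 1. Hdgfl2 was at 43.68 to 50.02 CPM (read counts scaled to a common library total, with TMM factors) in wild type mice and at 0.50 to 2.53 CPM in knockouts, a log2 fold change of -5.09 (SE 0.34, adjusted p = 1.38e-07, edgeR quasi-likelihood test). The haemoglobin genes Hba-a1, Hba-a2, Hbb-bs and Hbb-bt had no read in any library, but the other 7 erythroid markers were all detected, with sums of 68.01 to 185.6 CPM in wild type and 30.32 to 229.0 CPM in knockout mice. Summed progenitor markers were at 8574 to 10870 CPM in wild type and 7766 to 10580 CPM in knockout mice. Knockout replicate 3 stood apart in the Y-linked genes (559 reads of Ddx3y, 104.5 CPM, against at most 4 reads of any of 4 Y-linked genes in each other library) and nearly lacked Xist (0.5606 CPM, against 229.0 to 302.8 CPM elsewhere), so results are also given without it. Each 3′ library fragment stands for 1 transcript. CPM values are used here only to compare mice within a gene, and levels of different genes are not ranked.

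None of the cholesterol genes passed the threshold between genotypes. By edgeR's quasi-likelihood test, 0 of the 6 tested members were called at an adjusted p under 0.25, the threshold of the study, beside 0.0178% of all genes tested (2 genes, Hdgfl2 and Tspoap1), or 0.00888% for genes lower in knockouts. At an unadjusted p under 0.05 there were also 0 of 6, beside 3.63% of all genes (1.56% higher and 2.07% lower in knockouts), and DESeq2 and limma-voom called 0 of the 6 members at an adjusted p under 0.25. For 0 of the 7 members were the 3 wild type and 4 knockout values separate, beside 5.16% of all genes tested (2.37% with knockouts above and 2.79% with knockouts below). Fitted changes were above 0 for Fdft1, Sqle and Hmgcs1 and below 0 for Lss, Cyp51 and Insig1, and their median log2 fold change was 0.030, beside -0.0014 over all genes. Summed over the 7 members, wild type mice had 180.0 ± 12.5 CPM (SD, n = 3) and knockouts 187.2 ± 33.9 CPM (SD, n = 4). In bulk RNA, a different number of cells of some type and a different amount of RNA per cell cannot be told apart.

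**Figure D1:**
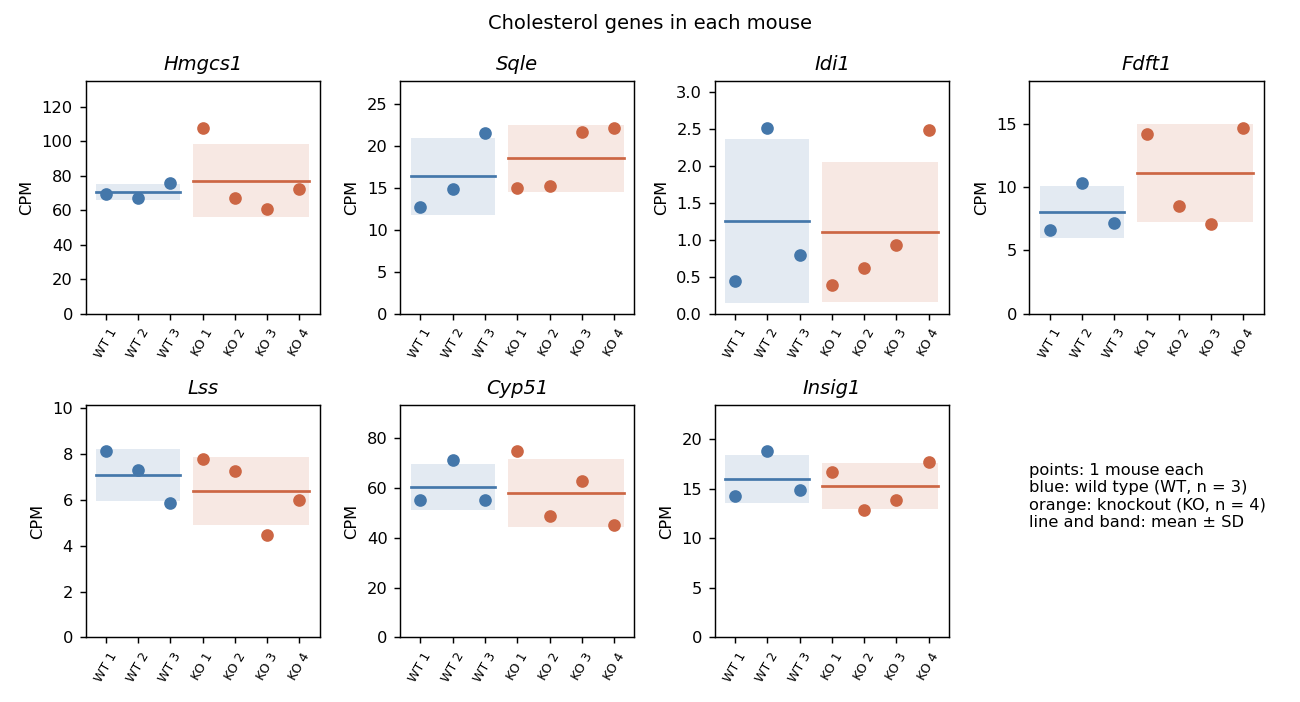
Level of each of the 7 cholesterol genes in each mouse, in CPM with TMM scaling on axes that start at 0 (blue, 3 wild type mice; orange, 4 knockout mice; line and band, mean ± SD). Wild type and knockout points overlap in every panel, and Hmgcs1 stands at 107.9 CPM in knockout replicate 1 while the other 6 mice lie between 60.91 and 75.99 CPM.

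Hmgcs1, the cytosolic HMG-CoA synthase (chr13:119690379-119708260), was at 69.54, 66.92 and 75.99 CPM in wild type replicates 1 to 3 and at 107.9, 66.91, 60.91 and 72.26 CPM in knockout replicates 1 to 4. Knockout replicate 1 was the highest of all mice and knockout replicate 3 the lowest, with the wild type values in between. Knockout over wild type, the log2 fold change was 0.12 (SE 0.18, 95% interval -0.27 to 0.51), and without knockout replicate 1 it was -0.085. The coefficient of variation was 27.4% among knockouts and 6.59% among wild type mice, where counting alone gives 5.34% and 6.01%.

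Idi1, the isopentenyl diphosphate isomerase (chr13:8885501-8892451), had 2, 9 and 3 reads in the wild type libraries and 2, 3, 5 and 10 reads in the knockout libraries. Several of these are at or under the 3 reads taken as the limit of detection, which stood at 0.535 to 0.851 CPM, and the gene did not pass the filter. Summed over mice, 14 reads in wild type gave 1.17 CPM on the unscaled total (95% exact Poisson interval 0.642 to 1.97) and 20 reads in knockouts gave 1.03 CPM (0.632 to 1.60), intervals that cover counting error only. A difference between genotypes was not detectable at this depth.

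Fdft1, the squalene synthase (chr14:63145150-63179578), was at 6.58, 10.36 and 7.17 CPM in wild type mice and at 14.19, 8.52, 7.10 and 14.70 CPM in knockouts. Knockout replicates 1 and 4 lay above every wild type mouse, and knockout replicates 2 and 3 lay within the wild type range. Means were 8.04 ± 2.03 CPM (SD, n = 3) against 11.1 ± 3.88 CPM (SD, n = 4), the largest fitted change among the 6 tested members. The log2 fold change of 0.47 (SE 0.35) had a 95% interval of -0.27 to 1.20, and its adjusted p in the edgeR fit was 0.999; it was 0.31 without knockout replicate 4. With 27 to 73 reads a library, a rise of up to 2.30-fold and a fall to 0.832-fold both lay inside the interval.

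Sqle, the squalene epoxidase and a rate-controlling step of the sterol arm (chr15:59315077-59331192), was at 12.72, 14.84 and 21.52 CPM in wild type mice and at 14.96, 15.17, 21.68 and 22.17 CPM in knockouts. Both genotypes held low and high mice, and knockout replicate 1, the highest for Hmgcs1, was among the low ones here. The fitted log2 fold change was 0.18 (SE 0.26, 95% interval -0.38 to 0.73), and it was 0.029 without wild type replicate 1 and 0.43 without wild type replicate 3.

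Lss (chr10:76531588-76557138), the lanosterol synthase, was at 8.12, 7.28 and 5.85 CPM in wild type mice and at 7.77, 7.27, 4.48 and 5.98 CPM in knockouts. The highest value was a wild type mouse and the lowest was knockout replicate 3, with overlap between them. Its log2 fold change was -0.15 (SE 0.37, 95% interval -0.93 to 0.62), or -0.27 without wild type replicate 3, and the spread within genotypes, 16.2% and 23.1%, was near the 19.2% and 18.5% that counting alone gives.

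Cyp51 (chr5:4081145-4104746), the lanosterol demethylase, was at 55.28, 71.12 and 55.00 CPM in wild type mice and at 74.62, 48.83, 62.78 and 45.10 CPM in knockouts. Knockout mice held both the highest value, in replicate 1, and the lowest 2, in replicates 4 and 2. A log2 fold change of -0.06 (SE 0.19, 95% interval -0.46 to 0.34) was fitted, which became 0.072 without wild type replicate 2.

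Insig1 (chr5:28071363-28078662), the sterol-sensing retention protein and itself a target of SREBP2, was at 14.26, 18.76 and 14.88 CPM in wild type mice and at 16.71, 12.88, 13.83 and 17.69 CPM in knockouts. The highest mouse was wild type replicate 2 and the lowest knockout replicate 2. Its log2 fold change was -0.06 (SE 0.25, 95% interval -0.59 to 0.46). Without knockout replicate 3, the mouse with Y-linked reads, the log2 fold changes were 0.22 for Hmgcs1, 0.090 for Sqle, 0.64 for Fdft1, -0.014 for Lss, -0.10 for Cyp51 and -0.017 for Insig1, and 0 of 6 members were called.

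In the annotation, Hmgcs1 overlaps Gm48342, Idi1 overlaps Gm48574, Fdft1 overlaps Ctsb, Lss overlaps 4930483K19Rik and Cyp51 overlaps Akap9. Which strand was counted is not given in the sources used here, so reads shared with those neighbours cannot be separated.

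The members did not form a single pattern over the 7 mice. Among 21 pairs of members the Pearson correlation of log2(CPM + 1) ran from -0.886, between Sqle and Lss, to 0.719, between Fdft1 and Insig1, with a median of 0.178 and 15 pairs above 0. With genotype means removed the median was 0.204. These correlations rest on 7 mice that share library depth and scaling, and are given as a description.

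Knockout replicate 1 held the highest level of many genes of the pathway. Among 33 tested genes of synthesis and uptake, it was highest in 10 (30.3%), whereas over all genes tested it was highest in 14.8%; knockout replicates 3 and 4 were highest in 7 each. Against the mean of the other 6 mice, it stood at 1.57-fold for Hmgcs1, 1.56-fold for Fdft1 and 1.32-fold for Cyp51. The same ratio was 1.62 for Msmo1, a C4-methylsterol oxidase, 1.75 for Hsd17b7, a sterol ketoreductase, and 1.37 for Stard4, a carrier of cholesterol between membranes. It was 1.09 for Insig1 and 0.831 for Sqle, so the excess did not extend to every target of SREBP2. The contrast of this mouse with the rest, and the genes Msmo1 and Stard4, were picked after the values were seen, and the library also had the lowest Rn45s share and the highest scaling factor (1.084), whose part in the result was not tested.

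**Figure D2:**
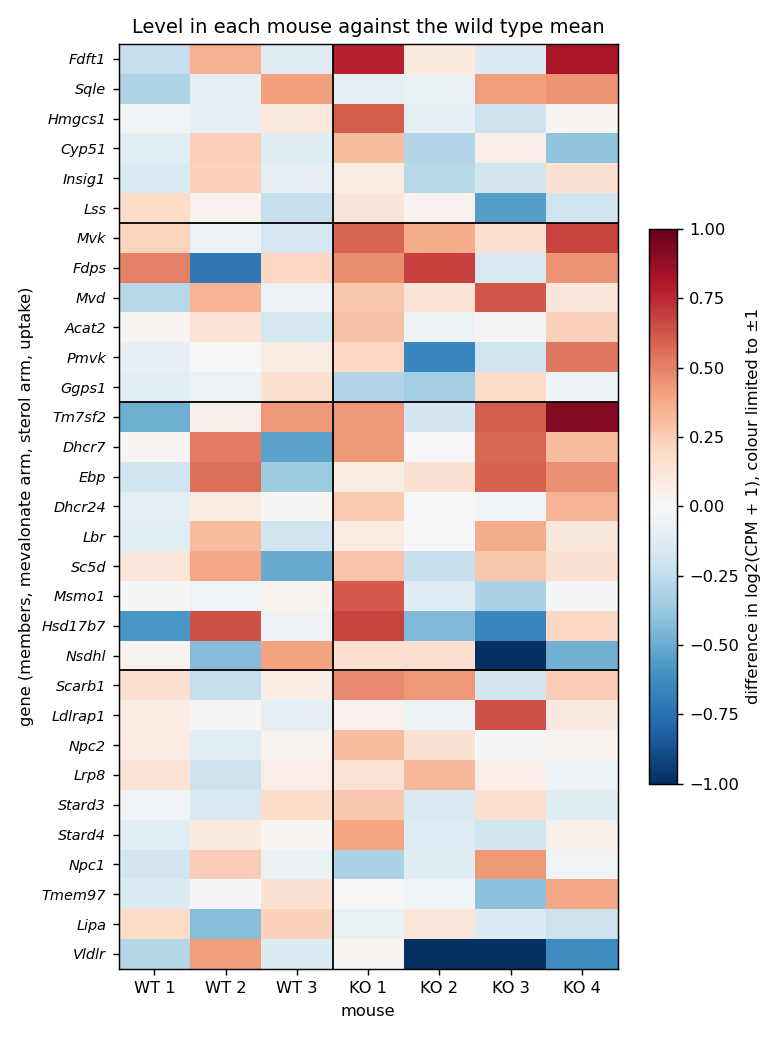
Difference in log2(CPM + 1) of each mouse (columns) from the wild type mean for 31 tested genes of synthesis and uptake (rows, grouped as members, mevalonate arm, sterol arm and uptake), red higher and blue lower, with colour limited to 1 in either direction. The column of knockout replicate 1 is red for Hmgcs1, Fdft1, Msmo1 and Hsd17b7 and near white for Insig1.

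The genes whose levels followed the members most closely were sought over the 7 mice, by Pearson correlation with the mean of the 7 standardized member levels. Of 11259 genes, the highest were H1f0, a replacement linker histone (r = 0.990, rho = 0.893), Rpl3l (r = 0.969), Hsd17b7 (r = 0.965), Nanos1 (r = 0.961) and Pkig (r = 0.961). The top of so many correlations over only 7 mice is high by selection, and no test was run. Rpl3l was at only 1.04 to 3.74 CPM and fell to rank 40 without Idi1 in the mean. Of 16 other synthesis genes tested, 13 had r above 0 and their median r was 0.438, beside 49.1% above 0 and a median of -0.0109 over all genes. When Idi1, with its few reads, was left out of the mean, 14 of the 16 were above 0 with a median of 0.366, and of those top 5 genes Nanos1 and Pkig stayed among the top 5.

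Among the remaining enzymes of the mevalonate arm, 6 of 7 had a fitted change above 0 and 1 below, 0 were called, and the median log2 fold change was 0.13. Over all genes tested, 50.2% were below 0. Without knockout replicate 1, 5 enzymes of this arm were above 0 and 2 below, with a median of 0.066. Mevalonate kinase Mvk had a log2 fold change of 0.48 (SE 0.27), mevalonate decarboxylase Mvd one of 0.29 (SE 0.20) and farnesyl diphosphate synthase Fdps one of 0.31 (SE 0.28). Single wild type mice moved these values: Fdps ran from 0.023 without wild type replicate 2 to 0.60 without wild type replicate 1, and Mvd from 0.16 without wild type replicate 1 to 0.48 without wild type replicate 2.

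Of 10 later enzymes of the sterol arm, 9 were in the files and tested, of which 7 had a fitted change above 0 and 2 below, with 0 called and a median log2 fold change of 0.13. Without knockout replicate 1, 6 of these enzymes were above 0 and 3 below. Those with the smallest p-values were the sterol isomerase Ebp at 0.28 (SE 0.20), the C14 reductase Tm7sf2 at 0.55 (SE 0.49) and Dhcr7, which makes cholesterol from 7-dehydrocholesterol, at 0.31 (SE 0.30). Each of these 3 intervals included 0 over all 7 mice. With 1 mouse left out, Ebp ran from 0.11 (without wild type replicate 3) to 0.61 (without wild type replicate 2), Dhcr7 from 0.068 to 0.62 without the same mice, and Tm7sf2 from 0.29 (without wild type replicate 1) to 0.87 (without wild type replicate 3).

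Of 12 genes of uptake and transport, 11 were tested, 9 with a change above 0 and 2 below, and 0 were called. Over all genes tested, 50.2% were below 0. Without knockout replicate 1, 7 genes of this list were above 0 and 4 below. The HDL receptor Scarb1 had a log2 fold change of 0.26 (SE 0.18) and the lipoprotein receptor Vldlr one of -0.88 (SE 0.55). Scarb1 was at 0.15 without wild type replicate 2 and Vldlr at -1.36 without knockout replicate 1. The summed level of the list was 1574 to 1739 CPM in wild type and 1742 to 2043 CPM in knockout mice, narrowly without overlap and with knockouts above. Most reads in this sum came from Npc2, the lysosomal cholesterol carrier, named after its values were seen, which says what the sum follows and not how the genes' expression compares.

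**Figure D3:**
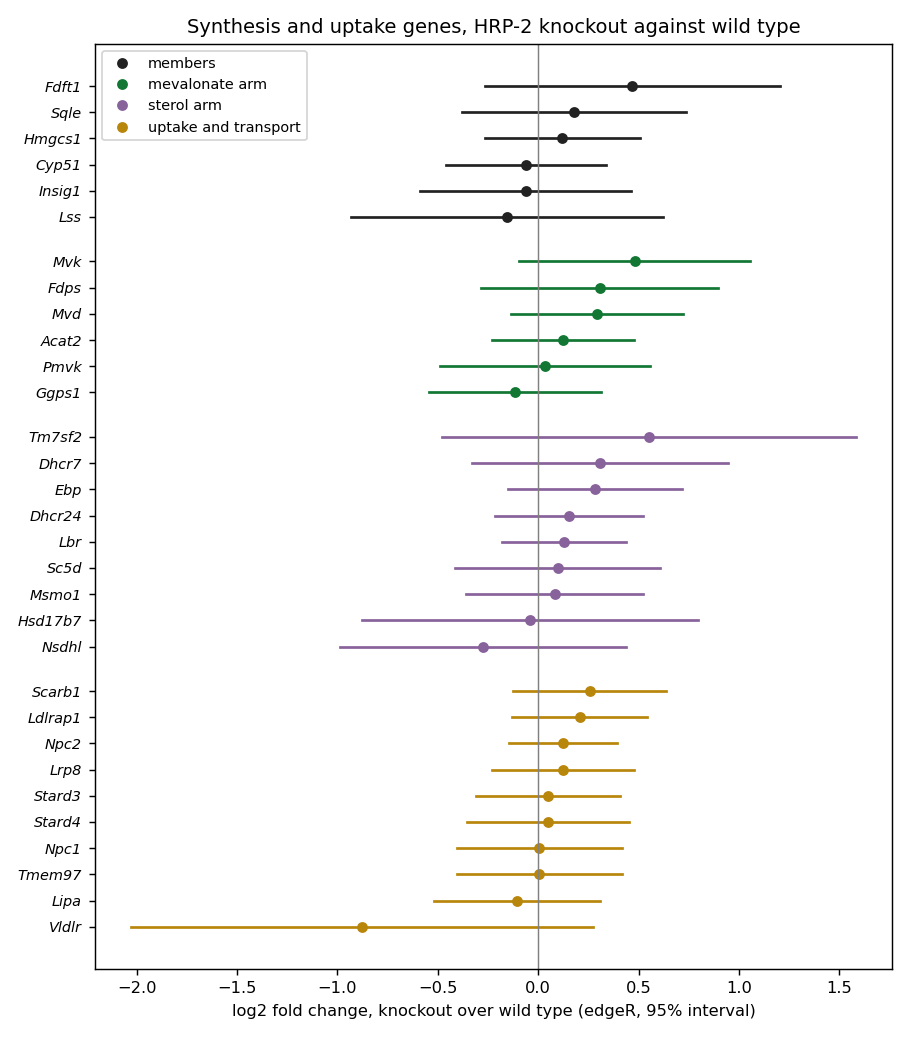
Fitted log2 fold change, knockout over wild type, with its 95% interval from edgeR, for 31 tested genes of synthesis and uptake (black, members; green, mevalonate arm; purple, sterol arm; gold, uptake and transport). All 31 intervals drawn include 0, and that of Fdft1 runs from -0.27 to 1.20.

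The genes that control the pathway were likewise not called, 0 of 13 tested of 14 listed, with 8 above 0, 5 below and a median log2 fold change of 0.015. Srebf2, which encodes SREBP2, was at 34.44, 51.24 and 44.90 CPM in wild type mice and at 58.69, 44.05, 54.75 and 54.81 CPM in knockouts. Knockout replicates 1, 3 and 4 lay above every wild type mouse and replicate 2 inside their range, with a log2 fold change of 0.29 (SE 0.18, 95% interval -0.09 to 0.67), which was 0.15 without wild type replicate 1. Srebf1, whose product acts mainly on fatty acid genes, had a log2 fold change of -0.11 (SE 0.19), the escort protein gene Scap one of 0.03 (SE 0.18) and Insig2, the second retention protein gene, one of -0.17 (SE 0.29). Faf2 and Ube2g2, which serve the degradation of proteins drawn out of the endoplasmic reticulum, had 0.27 (SE 0.23) and 0.11 (SE 0.14), of which Faf2 was at 0.039 without wild type replicate 2 and 0.53 without wild type replicate 3.

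Of 15 fatty acid genes, 13 were tested, 7 above 0 and 6 below, with 0 called and a median log2 fold change of 0.003. Acss2, which makes acetyl-CoA from acetate, was at 7.90, 23.24 and 15.14 CPM in wild type mice and at 10.69, 9.56, 9.34 and 10.22 CPM in knockouts. The 4 knockouts lay close together inside the wide wild type range, with a log2 fold change of -0.62 (SE 0.32, 95% interval -1.30 to 0.06). It was -0.94 without wild type replicate 1 and -0.20 without wild type replicate 2. Fatty acid synthase Fasn had a log2 fold change of 0.15 (SE 0.13) and Mid1ip1 one of 0.16 (SE 0.19), which were 0.24 without wild type replicate 1 and 0.0084 without knockout replicate 1.

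The genes of cholesterol efflux and of its sensors, the LXR receptors, ran the other way in count: of 13 listed, 11 were tested, 4 above 0 and 7 below, with 0 called and a median log2 fold change of -0.22. Without knockout replicate 3, 9 were tested, 4 above 0 and 5 below, with a median of -0.0065. Nr1h3, which encodes LXR alpha, was at 4.39, 2.24 and 6.64 CPM in wild type mice and at 0.19, 1.87, 2.80 and 1.00 CPM in knockouts, from 1 to 25 reads a library. Only knockout replicate 3 reached above the lowest wild type mouse. Fitted over all 7 mice, the log2 fold change was -1.56 (SE 0.67, 95% interval -2.97 to -0.16, adjusted p = 0.999 by edgeR's quasi-likelihood test), at an unadjusted p under 0.05 and lower as were 2.07% of all genes; without knockout replicate 3 it did not pass the filter. Apoe, the apolipoprotein that accepts cellular cholesterol, had a log2 fold change of -0.26 (SE 0.14) and Cyp27a1, the sterol 27-hydroxylase, one of 0.68 (SE 0.40). The value for Cyp27a1 was 0.37 without wild type replicate 3 and 1.28 without wild type replicate 2, and that for Apoe ran from -0.34 to -0.17 without knockout replicate 3 or 4. Ch25h, the cholesterol 25-hydroxylase, had 3 reads in knockout replicate 3 and none in the other 6 libraries.

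Markers of macrophages, cells that express Nr1h3 and Apoe, were lower in the same mice. All 11 tested of 12 macrophage markers had a fitted change below 0 (median log2 fold change -0.58, 0 called), beside 50.2% of all genes below 0, and 7 of them were at an unadjusted p under 0.05, beside 2.07%. Their summed level was 430.2 to 487.5 CPM in wild type and 302.6 to 361.0 CPM in knockout mice, and that of the efflux list 365.1 to 378.9 CPM and 317.4 to 354.5 CPM, so that neither sum overlapped between genotypes. The sum of the uptake and transport list did not overlap either, with knockouts above wild type (1742 to 2043 CPM against 1574 to 1739 CPM). Nearly all of the gap in the efflux sum was Apoe, at 156.4 ± 14.2 CPM (SD, n = 3) against 130.8 ± 18.5 CPM (SD, n = 4) with overlap, and without Apoe the efflux sums overlapped, at 195.9 to 237.8 CPM and 203.1 to 222.5 CPM. Siglec1, a macrophage lectin, had 0, 3 and 5 reads in wild type replicates 1 to 3 and none in knockouts, too few for a test. Without knockout replicate 3, 10 of the 11 macrophage markers were below 0 (median -0.63). The part of these cells in the efflux values was not tested. Neutrophil markers were summed at 7872 to 10970 CPM in wild type and 8974 to 24780 CPM in knockout mice, and all 10 had a fitted change above 0 (median log2 fold change 0.77, 0 called). The highest sum was that of knockout replicate 3, and without it the knockouts reached 15640 CPM, with 8 of 10 markers above 0 and a median of 0.31. Markers of dividing cells were summed at 3483 to 3746 CPM and 3536 to 3794 CPM, with a median log2 fold change of 0.017 over 18 genes.

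**Figure D4:**
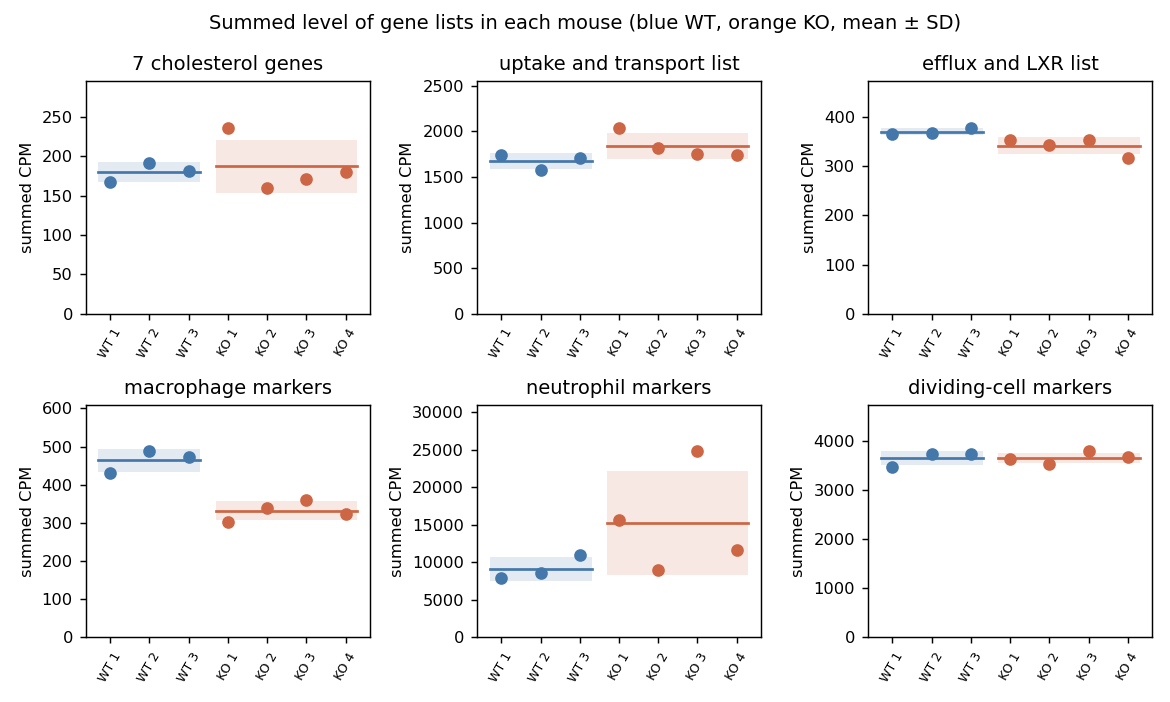
Summed CPM of 6 gene lists in each mouse, on axes that start at 0 (blue, 3 wild type mice; orange, 4 knockout mice; line and band, mean ± SD). Macrophage markers lie at 430.2 to 487.5 CPM in wild type and 302.6 to 361.0 CPM in knockout mice, while the 7 cholesterol genes overlap, at 167.0 to 191.8 CPM and 160.2 to 236.5 CPM.

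Over the 6 other lists, 64 of 71 genes were tested, with 0 called and a median log2 fold change of 0.034. Of the 64, 41 had a fitted change above 0 and 23 below (35.9%), beside 50.2% of all genes below 0. The genotypes were separate for 0 of the 64, beside 5.16% of all genes tested. The intervals set what these libraries could show: for Hmgcs1 they ran from 0.832-fold to 1.42-fold and for Sqle from 0.770-fold to 1.66-fold.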

How the data were processed

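The authors made QuantSeq 3′ libraries from 500 ng of total RNA, sequenced 75-base single reads, aligned them to GRCm38 with STAR and quantified genes on Ensembl annotation. The deposited files hold raw counts, whole numbers of reads per gene symbol, 1 file per mouse; the tally rows (reads on no gene, ambiguous reads) were left out of totals and tests. All 7 libraries were mapped to a genotype by their labels, and no sample was left out.

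TMM factors, CPM, the filterByExpr filter and the robust quasi-likelihood test of genotype were computed from the counts with edgeR 4.0.16 (R 4.3.3), with Benjamini-Hochberg adjustment over 11265 genes. The standard error is the log2 fold change over the square root of F. Calls used an adjusted p under 0.25, with 0.05 beside it. Alternatives were DESeq2 1.42.0, limma-voom (limma 3.58.1), other scalings and filters, a replicate block and leaving out each mouse. The replicates are separately labelled animals, every pair of which differed by more than sampling noise. Replicate numbers did not pair mice: deviations of same-numbered mice correlated at -0.0249, -0.215 and -0.16.

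The members and gene lists were chosen with earlier results of these data known. Beside the 7 members, genes named were fixed pathway genes and, in each list, the 3 with the smallest p, of which 2 genes are counted in their lists but not reported here by name; Msmo1, Stard4, Stard3, Npc2, Siglec1, the haemoglobin genes and Tspoap1 were named after their values were seen. Coordinates are those of GENCODE M21, and promoters those of RefSeq.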

Additional observations from a re-analysis of the deposited data

Results flagged for a closer look

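Among 42 levels checked in the 4 knockout mice and reported here, 5 had a mouse far from the other 3, where chance gives about 1 in 20, or 2.1. All 5 lay in knockout replicate 3. They were the Y-linked genes Ddx3y (104.5 CPM), Eif2s3y (35.69 CPM), Uty (37 CPM) and Kdm5d (8.782 CPM), and Ch25h, whose 0.5606 CPM stands for 3 reads. The sex of the mice is not in the labels. None of the 7 cholesterol genes had such a mouse, and for Hmgcs1 the high value of knockout replicate 1 did not reach the limit.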

How the results depend on the processing

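No member and no other gene of the 6 pathway lists was called under any of the 17 alternatives. The median log2 fold change of the 6 tested members ran from -0.096 (without knockout replicate 1) to 0.098 (without knockout replicate 2); over all members tested it reached -0.11 without wild type replicate 3, where Idi1 entered. Genes called over all genes were 2, and became 21 with DESeq2, 29 with the edgeR likelihood ratio test, 41 with no filter on low counts, 1 with at least 10 counts in every mouse, which leaves Hdgfl2 untested, and 2 to 7 when 1 mouse was left out (7 without wild type replicate 1, 4 without knockout replicate 1); the cause of the other moves was not tested. Under the replicate block, 1 gene stayed called (Tspoap1 was lost, and no other call of a gene named here changed) and Cyp51 changed sign to 0.031. Leaving out 1 mouse changed the sign of 6 of the log2 fold changes recomputed: Hmgcs1 ran from -0.085 (without knockout replicate 1) to 0.22, Cyp51 from -0.20 to 0.072 (above 0 without wild type replicate 2, knockout replicate 2 or knockout replicate 4), Insig1 from -0.14 to 0.067 (above 0 without wild type replicate 2 or knockout replicate 2), Ube2g2 from -0.011 (without wild type replicate 3) to 0.21, Scap from -0.14 (without wild type replicate 3; also below 0 without wild type replicate 1 or knockout replicate 3) to 0.27, and Insig2 from -0.39 to 0.037 (without knockout replicate 1). Scap was also -0.029 after thinning to the smallest total. Srebf1, Scap, Insig2, the fixed set of 6 members, the lists without single mice and the efflux sum without Apoe were added after seeing the data. Hdgfl2 stayed between -5.62 and -4.86 in the 16 alternatives that tested it, and Nr1h3 was not tested without knockout replicate 3. Idi1, at 2 to 10 reads a library, was tested in the 3 alternatives whose filter it passed, at -0.17 with no filter, -0.60 without wild type replicate 1 and -0.40 without wild type replicate 3, and was not called. For Lss, counting alone gives about the spread seen.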
